A study of Mus musculus with 9 samples.

Results

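Prss23, Thbs1, Myl9, Ccn1, Ccn2, Tagln, Acta2, Ankrd1 and Tgfbi are 9 genes known as targets of the YAP, SRF and TGF-beta pathways, out of 22396 genes with deposited counts. They were selected on measured values of these same data, their higher counts with shRNAs against Osgep than with the control shRNA, so their differences from the control are a description and were not tested. The study used B16F10, a mouse melanoma cell line labelled wild type, stably expressing FLAG-tagged RIG-I, a sensor of viral and other unusual RNA, and each of its 3 groups carried shCtr, the control shRNA, or shOSGEP#1 or shOSGEP#2, which target Osgep. OSGEP is the enzyme that adds the t6A modification to tRNAs. RNA was recovered with an anti-FLAG antibody, depleted of ribosomal RNA and sequenced in 3 replicates per group, stated to be independent experiments, 9 libraries in all. All 3 groups carry the tagged RIG-I and a stably expressed shRNA. The methods describe puromycin selection after lentiviral transduction and no cloning step.

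YAP and TAZ are co-activators that enter the nucleus when the Hippo kinases are quiet, for instance in spread cells under tension, and act through TEAD factors on genes such as Ccn1, Ccn2 and Ankrd1. SRF drives genes of the actin cytoskeleton with its co-activators MRTF-A and MRTF-B, which are released when actin polymerizes. TGF-beta ligands signal through a pair of receptor kinases and SMAD factors to genes of the extracellular matrix, and many genes, Ccn2, Thbs1, Tagln and Acta2 among them, respond to more than 1 of these inputs.

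Depth, the sum of all counts in replicate 1, replicate 2 and replicate 3, was 40333037, 47750758 and 41805753 in shCtr, 34551436, 50224299 and 30697653 in shOSGEP#1 and 25460689, 568995 and 14914731 in shOSGEP#2. shOSGEP#2 replicate 2 was far shallower than the other 8 libraries, and in it a gene below 5.27 counts-per-million (CPM) falls under 3 counts. It had counts for 4196 genes, against 11733 to 13958 in the others. Its values departed from the other shOSGEP#2 libraries both ways. Yap1 was at 1.76 CPM against 390 and 359, and Srf at 390 CPM against 76.5 and 70.1. Intervals and upper limits for this library take reads as drawn independently and cover counting error only, so they can be too narrow. Its values are given apart from the others, in brackets or in sentences of their own, and means, SDs and fold changes refer to the 8 deep libraries, so n = 2 for shOSGEP#2 and n = 3 for the other groups. The share of counts from mitochondrial genes was 2.96% in shOSGEP#1 replicate 3 and from 0.147% to 0.633% in the other libraries. That library held the highest Prss23, Thbs1, Ccn1, Ccn2 and Acta2 of its group and the lowest Myl9, Tagln and Tgfbi, and the part of this share in those levels was not tested. Osgep itself (ENSMUSG00000006289) was at 19.1, 19.9 and 15.5 CPM in shCtr, 3.76, 1.15 and 1.53 in shOSGEP#1, 0.0786 and 2.88 in the deep shOSGEP#2 libraries and 0 in shOSGEP#2 replicate 2. Every library of both shRNAs lay below every shCtr library. The log2 fold changes, with their standard errors, were -3.10 ± 0.73 and -3.84 ± 0.93, with adjusted p of 0.0128 and 0.0150 in edgeR (adjusted over 12744 genes), both above the threshold of 0.01. Each CPM is a fraction of what the FLAG-RIG-I pulldown recovered. Lysate RNA was not analysed here, so abundance and binding to RIG-I cannot be told apart, nor can fewer cells of a type and less RNA per cell.

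Ccn1 (ENSMUSG00000028195), a secreted matricellular protein and a standard YAP target, was at 11.7, 12.0 and 14.8 CPM in shCtr, 34.8, 63.3 and 63.7 in shOSGEP#1 and 94.9 and 67.1 in shOSGEP#2. All libraries of both shRNAs lay above all shCtr libraries, and the lowest shOSGEP#1 library stood apart from the other 2. The log2 fold change was 2.06 ± 0.26 with shOSGEP#1 and 2.57 ± 0.28 with shOSGEP#2. Its relative Ccn2 (ENSMUSG00000019997) was at 0.421, 0.817 and 2.10 CPM in shCtr, 4.80, 8.98 and 15.3 in shOSGEP#1 and 3.69 and 3.69 in shOSGEP#2. The order of the shRNAs was the opposite of that for Ccn1, with every shOSGEP#1 library above both shOSGEP#2 libraries. The log2 fold change of Ccn2 was 3.10 ± 0.61 with shOSGEP#1 and 1.63 ± 0.64 with shOSGEP#2. Thbs1 (ENSMUSG00000040152), thrombospondin 1, another matricellular protein and an activator of latent TGF-beta, was at 0.967, 1.55 and 2.27 CPM in shCtr, 7.84, 12.3 and 17.2 in shOSGEP#1 and 19.7 and 19.6 in shOSGEP#2. The 3 groups did not overlap, and the log2 fold changes were 2.95 ± 0.38 and 3.52 ± 0.41.

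Prss23 (ENSMUSG00000039405), a secreted serine protease, was at 3.60, 4.25 and 7.37 CPM in shCtr, 43.5, 71.4 and 79.7 in shOSGEP#1 and 124 and 130.2 in shOSGEP#2. Among the 7 members with a fitted value it had the largest log2 fold change with shOSGEP#1, 3.66 ± 0.31, and 4.55 ± 0.33 with shOSGEP#2, again with 3 groups that did not overlap. Ankrd1 (ENSMUSG00000024803), a nuclear ankyrin repeat protein and a YAP target in many cells, had 4 counts in shOSGEP#1 replicate 2 and none in the other 8 libraries. It had no level to compare at this depth, and no fold change is given.

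The other members belong to the contractile genes that SRF is known for, and 1 to the matrix genes of TGF-beta. Myl9 (ENSMUSG00000067818), a myosin regulatory light chain, was at 0.917, 1.30 and 1.65 CPM in shCtr, 7.15, 8.9996 and 3.32 in shOSGEP#1 and 32.0 and 34.5 in shOSGEP#2. The shOSGEP#2 libraries lay well above the shOSGEP#1 libraries, which lay above shCtr. The log2 fold changes were 2.32 ± 0.37 and 4.59 ± 0.42. Tagln (ENSMUSG00000032085), the actin-binding protein transgelin, had 4, 12 and 2 counts in shCtr, 24, 28 and 14 in shOSGEP#1 and 75 and 16 in shOSGEP#2. That made 0.0992, 0.251 and 0.0478 CPM in shCtr, 0.695, 0.557 and 0.456 in shOSGEP#1 and 2.95 and 1.07 in shOSGEP#2, with no overlap between either shRNA and shCtr. Its log2 fold changes, 2.05 ± 0.92 and 3.80 ± 1.01, carried large errors and moved with single libraries. Leaving out each of the 8 libraries in turn, they ran from 1.66 to 2.88, the highest without shCtr replicate 2, and from 2.84 to 4.64, the lowest without shOSGEP#2 replicate 1 and the highest without shCtr replicate 2. The same ranges with shOSGEP#1 and shOSGEP#2 were 1.92 to 2.30 and 2.25 to 2.82 for Ccn1, 2.61 to 3.95 and 1.25 to 2.47 for Ccn2, 2.64 to 3.29 and 3.27 to 3.87 for Thbs1, 3.46 to 4.04 and 4.36 to 4.93 for Prss23 and 2.00 to 2.63 and 4.40 to 4.81 for Myl9.

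Acta2 (ENSMUSG00000035783), smooth muscle actin, had 0, 2 and 2 counts in shCtr, 4, 1 and 10 in shOSGEP#1 and 53 and 8 in shOSGEP#2. The shOSGEP#1 libraries overlapped the shCtr libraries and the shOSGEP#2 libraries did not. Over pooled counts the ratio to shCtr was 4.22 (95% interval 1.34 to 17.5) with shOSGEP#1 and 49.1 (95% interval 18.2 to 186) with shOSGEP#2, from 4 counts in all of shCtr, and 53 of the 61 counts of shOSGEP#2 were those of replicate 1. These exact binomial intervals, like the floor of 3 counts, cover counting error only and not the spread between replicates. The fitted log2 fold changes of Acta2 were 2.16 ± 1.42 with shOSGEP#1 and 5.21 ± 1.53 with shOSGEP#2. Leaving out each of the 8 libraries, they ran from 0.99, without shOSGEP#1 replicate 3, to 2.70 and from 3.87, without shOSGEP#2 replicate 1, to 5.89. Tgfbi (ENSMUSG00000035493), a secreted matrix protein named for its induction by TGF-beta, had 2, 0 and 0 counts in shCtr, 6, 14 and 0 in shOSGEP#1 and 2 and 0 in shOSGEP#2. The groups overlapped in both comparisons. The pooled ratio was 11.2 (95% interval 2.73 to 99.3) with shOSGEP#1 and 3.22 (95% interval 0.233 to 44.4) with shOSGEP#2, from 2 counts in shCtr.

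**Figure D1:**
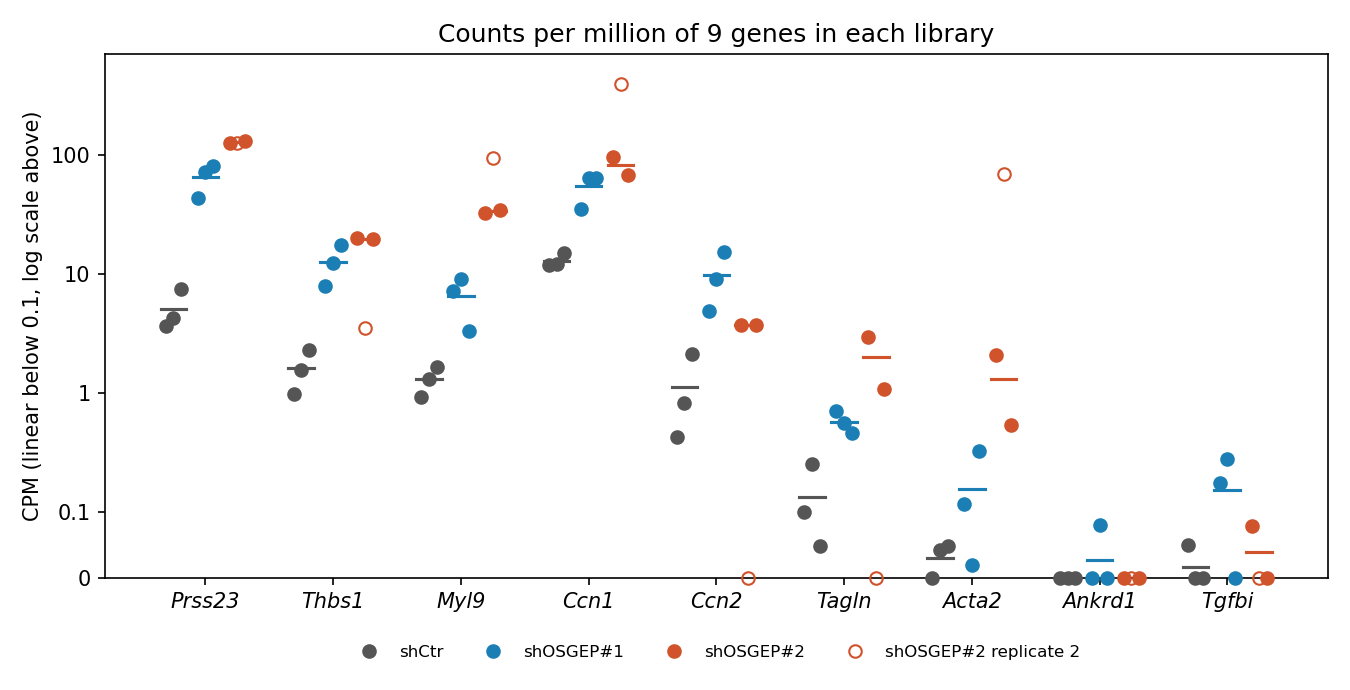
CPM of the 9 genes in each library, on an axis that is linear below 0.1 and logarithmic above it. Points are libraries, bars are means of the deep libraries of a group (n = 3, 3 and 2), and open points are shOSGEP#2 replicate 2; Prss23 ran from 3.60 to 7.37 CPM in shCtr and from 43.5 to 130.2 in the libraries with an shRNA against Osgep.

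In shOSGEP#2 replicate 2, Ccn1 was at 388 CPM, or 221 counts, with an interval of 339 to 443 (Clopper-Pearson, 95%). Prss23 was at 125 CPM, or 71 counts, with an interval of 97.5 to 157, beside 124 and 130.2 CPM in the other libraries of the group. Myl9 was at 93.1 CPM, or 53 counts, with an interval of 69.8 to 122, and Acta2 was at 68.5 CPM, or 39 counts, with an interval of 48.7 to 93.7. Of these 4 genes Prss23 alone had an interval that held both other shOSGEP#2 values, while Ccn1, Myl9 and Acta2 lay above them. Thbs1 had 2 counts there, which gives 3.51 CPM with an upper limit of 12.7, below both other libraries. Ccn2, Tagln, Ankrd1 and Tgfbi had none, which allows up to 6.48 CPM, above their level in the other shOSGEP#2 libraries, so nothing can be read from these zeros.

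Of the 9 genes, 7 passed the filter on low counts, and Ankrd1 and Tgfbi did not. In 6 of these 7 every shOSGEP#1 library lay above every shCtr library, as in 23.1% of the 12744 genes tested. In all 7 both deep shOSGEP#2 libraries did, as in 28.7% of genes tested, and in 6 both conditions held, as in 11.9%. The genes were chosen for this direction, and both comparisons share the shCtr libraries, so nothing is read from these counts. Per kilobase of exon, Ccn1 was the highest of the 9 in each group, at 6.37 ± 0.839 CPM per kb in shCtr, 26.7 ± 8.22 in shOSGEP#1 and 40.1 ± 9.71 in shOSGEP#2. Prss23 came next at 1.49 ± 0.593, 19.1 ± 5.59 and 37.5 ± 1.23 CPM per kb, which in shOSGEP#1 and in shOSGEP#2 did not differ from Ccn1 beyond the SDs. Myl9 came after them at 1.14 ± 0.325, 5.75 ± 2.57 and 29.5 ± 1.51 CPM per kb, within the SDs of Prss23 in shCtr and beyond them with either shRNA, and within those of Ccn1 in shOSGEP#2 and of Ccn2 in shOSGEP#1. Ccn2 and Thbs1 changed places between the shRNAs, with 3.50 ± 1.91 against 2.13 ± 0.803 CPM per kb in shOSGEP#1, within their SDs, and 1.33 ± 0.00111 against 3.36 ± 0.0168 in shOSGEP#2, beyond them. Tagln followed at 0.0832 ± 0.0663, 0.357 ± 0.0751 and 1.26 ± 0.830 CPM per kb, within the SDs of Ccn2 in shCtr and in shOSGEP#2. Acta2 was at 0.0147 ± 0.0128, 0.0756 ± 0.0769 and 0.643 ± 0.537 CPM per kb and Tgfbi at 0.00609 ± 0.0105, 0.0556 ± 0.0519 and 0.0145 ± 0.0205. These 2 lay within the SDs of each other in shCtr and in shOSGEP#1, and Acta2 lay within those of Tagln in shCtr and in shOSGEP#2. Ankrd1 was not ranked.

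The genes whose levels followed the mean of these 7 most closely over the 8 deep libraries were Ankrd13c, Ahr, Col4a1, Itga9 and Boc, among 9545 candidates with a mean log2 CPM of at least 3. Pearson's r with the mean z-score ran from 0.981 to 0.992, a description over libraries that fall into 3 groups. Ahr, the aryl hydrocarbon receptor, was at 18.8, 18.0 and 22.5 CPM in shCtr, 42.2, 49.4 and 51.0 in shOSGEP#1 and 81.8 and 68.8 in shOSGEP#2 (0 in replicate 2). Col4a1, a chain of basement membrane collagen, was at 4.76, 4.82 and 5.84 CPM in shCtr, 9.72, 14.3 and 13.3 in shOSGEP#1 and 18.9 and 18.2 in shOSGEP#2 (0 in replicate 2). Itga9, an integrin chain, was at 10.5, 10.8 and 14.6 CPM in shCtr, 27.6, 33.8 and 28.3 in shOSGEP#1 and 50.5 and 45.5 in shOSGEP#2 (66.8 in replicate 2). In the deep libraries shOSGEP#2 was above shOSGEP#1 and shOSGEP#1 above shCtr in these genes, with no overlap. Replicate 2 of shOSGEP#2 had no count of Ahr or Col4a1, and its upper limit of 6.48 CPM lies below every shCtr library for Ahr and below both other shOSGEP#2 libraries for each of the 2 genes. The same order held in the deep libraries for Ankrd13c, at 63.9, 75.8 and 74.9 CPM in shCtr, 114, 123 and 119 in shOSGEP#1 and 149.8 and 145 in shOSGEP#2 (214 in replicate 2), and for the hedgehog co-receptor Boc, at 10.9, 12.1 and 12.0 CPM in shCtr, 27.2, 37.6 and 35.1 in shOSGEP#1 and 83.7 and 64.4 in shOSGEP#2 (111 in replicate 2).

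The contrast between the shRNAs compares no shCtr library and was tested, although shCtr entered the scaling and the spread of the fit. Of the 7 genes fitted, Myl9 alone was called at an adjusted p under 0.01, higher with shOSGEP#2 by a log2 fold change of 2.27 ± 0.38 (adjusted p = 0.00181), in both deep shOSGEP#2 libraries against all 3 of shOSGEP#1. In this contrast 6.23% of all genes tested were called higher and 4.56% lower. Leaving out each library in turn kept the call, with an adjusted p of at most 0.00981, while from 743 to 1504 of all genes were called in these fits and 1375 with the 8 libraries, and with all 9 libraries edgeR gave 0.171 and DESeq2 7.43e-05. Prss23 differed by 0.89 ± 0.30 (adjusted p = 0.0548) and Thbs1 by 0.58 ± 0.38 (adjusted p = 0.300). Ccn2 was lower with shOSGEP#2 by -1.47 ± 0.66 (adjusted p = 0.129). These values did not pass the test, nor did Ccn1 at 0.51 ± 0.27 (adjusted p = 0.196) and Tagln at 1.75 ± 0.94 (adjusted p = 0.203). Acta2 passed the filter on low counts through the 2 shOSGEP#2 libraries, where it is high, so its difference of 3.05 ± 1.38 is a description and no test. That value ran from 1.71 to 4.23 when each library was left out, the lowest without shOSGEP#2 replicate 1 and the highest without shOSGEP#1 replicate 3, and was 6.46 with all 9 libraries.

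Some members share sequence with other genes. Of the 31-base words of the annotated transcripts of Tagln, 58.2% also occur in the overlapping gene Gm48529 and 3.93% in Pcsk7. For Prss23, 21.9% occur in the antisense gene Prss23os, and for Ccn2, 19.5% in Gm15270. Thbs1 shared 2.52% with Gm29233. Gm48529, Prss23os, Gm15270 and Gm29233 are not among the genes counted, the strand setting of the counting was not given in the sources used here, and the levels of Tagln, Prss23, Ccn2 and Thbs1 are uncertain to that extent. Pcsk7 was at 31.4, 31.2 and 33.2 CPM in shCtr, 32.5, 42.5 and 38.9 in shOSGEP#1 and 39.9 and 59.5 in shOSGEP#2 (0 in replicate 2), far above Tagln in each deep library, and its part in the Tagln counts was not tested. Acta2 shared 1.29% with Gm6375 and 1.20% with Actg1, and Myl9 0.412% with Myl12a and as much with Myl12b. Tgfbi shared at most 0.609%, with Fyco1, and Ankrd1 at most 0.131%, with Pcx. Actg1 was at 1519, 1605 and 1609 CPM in shCtr, 2427, 2501 and 1757 in shOSGEP#1 and 2322 and 2053 in shOSGEP#2 (699 in replicate 2) per library, far above Acta2, and its part in the Acta2 counts was not tested. Myl12a, at 182, 167 and 167 CPM in shCtr, 199.7, 218 and 181 in shOSGEP#1 and 293 and 267 in shOSGEP#2 (8.79 in replicate 2), lay above Myl9 in each deep library, and its part was not tested either. Ccn1 shared no such word with another gene.

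To see how the rest of these pathways stood, 130 other genes in 6 lists were counted, of which 118 were tested. The lists were chosen with earlier results of these data known, so their shares are a description and no independent support. Of the 6 lists, 5 are described below, and the totals are over all 6. With shOSGEP#1, 21 were called higher than shCtr and 3 lower, while 5.00% of all genes tested were called higher and 4.67% lower. With shOSGEP#2, 30 were called higher and 1 lower, beside 5.66% and 3.89% of all genes. The share called higher was 17.8% of the 118 with shOSGEP#1 and 25.4% with shOSGEP#2, above the shares over all genes, and the median log2 fold changes were 0.29 and 0.34, against 0.00 and -0.06 over all genes. Placing genes with 3 counts or fewer in a group at 3 counts over that group changed the medians of the 6 lists in 1 case, given below. Of 59 tested genes in the 3 lists of targets, 11 were called higher with shOSGEP#1 and 22 with shOSGEP#2. The other 59 tested genes, those of the component lists, had 10 and 8, so with shOSGEP#1 the targets did not stand apart from the components. The deep shOSGEP#2 libraries also held less of most melanocyte markers, given below, and the part of that shift in the counts for shOSGEP#2 was not tested. The 2 comparisons share the shCtr libraries, and the members of the lists are not independent of each other. The counts for shOSGEP#1 rested on single libraries, in these lists as over all genes. The 21 genes called higher became 5, 3 or 10 without shCtr replicate 1, 2 or 3 and 3 without shOSGEP#1 replicate 2, while all calls, 1232 over the genes tested, became 427, 318, 763 and 429. The 3 called lower became 0, 1 and 0 without shCtr replicate 1, shCtr replicate 2 and shOSGEP#1 replicate 2, with 10 and 13 at an unadjusted p under 0.05 in edgeR beside the zeros, where 2.95 in 1 direction would come from no change among 118 genes, and 6 called by DESeq2 on the 8 libraries. Of the 20 named genes called with shOSGEP#1, Filip1l and Ltbp3 kept their call without each library in turn, and the other 18 lost it without 1 or more, with adjusted p of at most 0.0476, for Frmd6 without shCtr replicate 1. The 1 called lower with shOSGEP#2 became 3 without shOSGEP#2 replicate 1, and 0 without shCtr replicate 1, 2 or 3, shOSGEP#1 replicate 2 or shOSGEP#2 replicate 3, with 6 to 10 at an unadjusted p under 0.05 in edgeR and 4 called by DESeq2. Calls with shOSGEP#2 over all genes, 1217 in the main fit, were 1248 without shOSGEP#2 replicate 1 and from 518 to 900 where the lists had 0. With shOSGEP#2, 16 of 22 named genes kept their call. In shOSGEP#2 replicate 2, which took no part in these calls, 20 of the 30 genes called higher with shOSGEP#2 lay above every shCtr library. Another 7 had an upper limit below every shCtr library, the opposite side, among named genes Gadd45a, Cnn2, Itga5, Tead1 and Tgfb3. For 14 of the 30 the upper limit lay below both deep shOSGEP#2 libraries. The shares over all genes in that library are not at hand, so nothing is read from these counts.

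Among 16 tested target genes of YAP and TAZ, 4 were called higher and 1 lower with shOSGEP#1, and 9 higher with shOSGEP#2 with the other 7 not called. The median log2 fold changes were 0.58 and 1.39. Axl stood at 11.4, 8.42 and 6.82 CPM in shCtr, 17.0, 24.7 and 16.5 in shOSGEP#1 and 73.8 and 57.5 in shOSGEP#2 (153 in replicate 2), the deep libraries of both above all of shCtr. Axl, a receptor tyrosine kinase, thus stood highest with shOSGEP#2, with log2 fold changes of 1.12 ± 0.24 (adjusted p = 0.00827) and 2.80 ± 0.27 (adjusted p = 0.000159). Lats2 stood at 35.5, 40.4 and 55.8 CPM in shCtr, 77.7, 93.1 and 107 in shOSGEP#1 and 120.2 and 124 in shOSGEP#2 (49.2 in replicate 2), the deep libraries of both above all of shCtr. Lats2, a Hippo kinase and feedback target of YAP, rose with both, by 1.06 ± 0.19 (adjusted p = 0.00346) and 1.38 ± 0.21 (adjusted p = 0.00128). Gadd45a stood at 36.0, 32.4 and 22.6 CPM in shCtr, 14.3, 11.2 and 17.3 in shOSGEP#1 and 101 and 85.8 in shOSGEP#2 (0 in replicate 2), with shOSGEP#1 below and deep shOSGEP#2 above all of shCtr. Gadd45a, a stress response gene, fell with shOSGEP#1, by a log2 fold change of -1.10 ± 0.22 (adjusted p = 0.00547), and rose with shOSGEP#2, by 1.53 ± 0.24 (adjusted p = 0.00138). Ccdc80 stood at 0.421, 0.733 and 0.957 CPM in shCtr, 0.695, 0.936 and 1.92 in shOSGEP#1 and 13.9 and 14.8 in shOSGEP#2 (0 in replicate 2), with deep shOSGEP#2 above all of shCtr and shOSGEP#1 overlapping it. Ccdc80, a matrix protein, rose with shOSGEP#2, by 4.24 ± 0.54 (adjusted p = 0.000481). Amotl2 stood at 57.2, 62.5 and 78.4 CPM in shCtr, 133, 126 and 107 in shOSGEP#1 and 374 and 242 in shOSGEP#2 (696 in replicate 2), the deep libraries of both above all of shCtr. Amotl2, an angiomotin that binds YAP, rose with shOSGEP#2, by 2.13 ± 0.22 (adjusted p = 0.000185), and so did Fjx1, by 2.09 ± 0.32 (adjusted p = 0.00123). Fjx1 stood at 3.94, 5.15 and 5.60 CPM in shCtr, 6.77, 7.41 and 5.08 in shOSGEP#1 and 15.9 and 29.1 in shOSGEP#2. It had no count in replicate 2 of shOSGEP#2, with an upper limit of 6.48 CPM, below both deep libraries of that group. Amotl2 with shOSGEP#1 had an adjusted p of 0.0102, just over the threshold. Tgfb2, a TGF-beta ligand, was at 4.02, 3.08 and 3.66 CPM in shCtr, 5.12, 7.05 and 5.05 in shOSGEP#1 and 5.66 and 5.97 in shOSGEP#2 (0 in replicate 2) and was not called. Axl's shOSGEP#1 call was lost without any 1 of shCtr replicates 1, 2 or 3 or shOSGEP#1 replicates 1, 2 or 3 (adjusted p up to 0.0441), and that of Lats2 without any 1 of shCtr replicates 1 or 2 or shOSGEP#1 replicates 2 or 3 (adjusted p up to 0.0245). Gadd45a's shOSGEP#1 call was lost without any 1 of shCtr replicates 1 or 2 or shOSGEP#1 replicates 1 or 2 (adjusted p up to 0.0290).

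Of 23 tested target genes of SRF and MRTF, most of them parts or partners of actin filaments, 5 were called higher with shOSGEP#1 and 11 with shOSGEP#2, and the others, 18 and 12, were not called. The median log2 fold changes were 0.35 and 1.04. Cnn2 stood at 139, 125 and 112.02 CPM in shCtr, 311, 341 and 189.8 in shOSGEP#1 and 629 and 529 in shOSGEP#2 (70.3 in replicate 2), the deep libraries of both above all of shCtr. Cnn2, the calponin of non-muscle cells, rose with both shRNAs, by 1.15 ± 0.21 (adjusted p = 0.00385) and 2.12 ± 0.23 (adjusted p = 0.000221). Tpm4 stood at 82.1, 81.0 and 66.5 CPM in shCtr, 164, 205 and 133 in shOSGEP#1 and 279 and 217 in shOSGEP#2 (313 in replicate 2), the deep libraries of both above all of shCtr. Tpm4, a tropomyosin, rose by 1.12 ± 0.19 (adjusted p = 0.00236) and 1.61 ± 0.20 (adjusted p = 0.000481). Vcl stood at 52.6, 55.9 and 68.1 CPM in shCtr, 101, 120.2 and 119 in shOSGEP#1 and 164 and 203 in shOSGEP#2 (118 in replicate 2), the deep libraries of both above all of shCtr. Vcl, the focal adhesion protein vinculin, rose by 0.93 ± 0.15 (adjusted p = 0.00225) and 1.54 ± 0.17 (adjusted p = 0.000219). Zyx stood at 242, 227 and 185 CPM in shCtr, 272, 257 and 305 in shOSGEP#1 and 913 and 762 in shOSGEP#2 (1652 in replicate 2), the deep libraries of both above all of shCtr. Zyx, zyxin of focal adhesions, rose with shOSGEP#2, by 1.85 ± 0.17 (adjusted p = 0.000151). Itga5 stood at 38.9, 39.1 and 29.3 CPM in shCtr, 27.8, 38.9 and 41.0 in shOSGEP#1 and 107 and 114 in shOSGEP#2 (0 in replicate 2), with deep shOSGEP#2 above all of shCtr and shOSGEP#1 overlapping it. Itga5, a chain of the fibronectin receptor, rose with shOSGEP#2, by 1.53 ± 0.20 (adjusted p = 0.000571). Filip1l stood at 37.8, 29.3 and 26.1 CPM in shCtr, 119, 109.6 and 189 in shOSGEP#1 and 39.2 and 37.1 in shOSGEP#2 (86.1 in replicate 2), with shOSGEP#1 above all of shCtr and deep shOSGEP#2 overlapping it. Filip1l, called with shOSGEP#1 alone, rose there by 2.15 ± 0.23 (adjusted p = 0.000284). Srf itself was at 47.2, 41.8 and 46.3 CPM in shCtr, 60.5, 60.5 and 38.9 in shOSGEP#1 and 76.5 and 70.1 in shOSGEP#2 (390.2 in replicate 2) and was not called with either shRNA. Nor were the genes of its co-activators, Mrtfa at 101, 102 and 100.3 CPM in shCtr, 86.5, 79.9 and 65.8 in shOSGEP#1 and 101 and 103 in shOSGEP#2 (77.3 in replicate 2), and Mrtfb at 111.99, 96.9 and 102 CPM in shCtr, 87.1, 78.9 and 59.1 in shOSGEP#1 and 121 and 74.0 in shOSGEP#2 (0 in replicate 2). Cnn2's shOSGEP#1 call was lost without any 1 of shCtr replicates 1, 2 or 3 or shOSGEP#1 replicates 1 or 2 (adjusted p up to 0.0232), and that of Tpm4 without any 1 of shCtr replicates 1, 2 or 3 or shOSGEP#1 replicate 2 (adjusted p up to 0.0138). Vcl's shOSGEP#1 call was lost without any 1 of shCtr replicates 1 or 2 or shOSGEP#1 replicate 2 (adjusted p up to 0.0184).

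Among 20 tested target genes of TGF-beta and SMADs, 2 were called higher with shOSGEP#1, and 2 higher and 1 lower with shOSGEP#2. The medians, 0.19 and -0.15, lay closer to those over all genes than the medians of the YAP and SRF targets did, and with the gene at 3 counts or fewer in a group placed at 3 counts the median for shOSGEP#2 was -0.0017. Fn1 stood at 46.4, 34.4 and 21.1 CPM in shCtr, 89.4, 110.0 and 86.1 in shOSGEP#1 and 255 and 157 in shOSGEP#2 (134 in replicate 2), the deep libraries of both above all of shCtr. Fn1, fibronectin, rose with both, by 1.48 ± 0.28 (adjusted p = 0.00407) and 2.52 ± 0.30 (adjusted p = 0.000362). Timp3 stood at 52.7, 47.7 and 54.1 CPM in shCtr, 61.4, 103 and 106 in shOSGEP#1 and 596 and 372 in shOSGEP#2 (360.3 in replicate 2), the deep libraries of both above all of shCtr. Timp3, an inhibitor of metalloproteinases bound to the matrix, rose with shOSGEP#2, by 3.15 ± 0.27 (adjusted p = 9.63e-05). Sparc stood at 393, 350.2 and 376 CPM in shCtr, 578, 945 and 724 in shOSGEP#1 and 544 and 589 in shOSGEP#2 (2561 in replicate 2), the deep libraries of both above all of shCtr. Sparc, a matricellular protein, rose with shOSGEP#1, by 0.99 ± 0.18 (adjusted p = 0.00346). Skil stood at 38.8, 50.4 and 47.9 CPM in shCtr, 64.9, 64.3 and 96.8 in shOSGEP#1 and 23.2 and 23.3 in shOSGEP#2 (0 in replicate 2), with shOSGEP#1 above and deep shOSGEP#2 below all of shCtr. Skil, a SMAD repressor that TGF-beta induces, fell with shOSGEP#2, by a log2 fold change of -1.07 ± 0.22 (adjusted p = 0.00691). Fn1's shOSGEP#1 call was lost without any 1 of shCtr replicates 2 or 3 or shOSGEP#1 replicates 2 or 3 (adjusted p up to 0.0223), and that of Sparc without any 1 of shCtr replicates 1, 2 or 3 or shOSGEP#1 replicate 2 (adjusted p up to 0.0248). Skil's shOSGEP#2 call was lost without any 1 of shCtr replicates 1, 2 or 3, shOSGEP#1 replicate 2 or shOSGEP#2 replicates 1 or 3 (adjusted p up to 0.0442).

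Of 23 tested Hippo and YAP components, 2 were called higher with shOSGEP#1 and 3 with shOSGEP#2. Yap1 was at 304, 316 and 342 CPM in shCtr, 397, 401 and 301 in shOSGEP#1 and 390.3 and 359 in shOSGEP#2 (1.76 in replicate 2), and Wwtr1, which encodes TAZ, at 127, 148 and 157 CPM in shCtr, 133, 144 and 140.3 in shOSGEP#1 and 182 and 198 in shOSGEP#2 (94.9 in replicate 2). Neither was called. Vgll3 stood at 432, 490.5 and 522 CPM in shCtr, 903, 1046 and 843 in shOSGEP#1 and 886 and 1009 in shOSGEP#2 (710.0 in replicate 2), the deep libraries of both above all of shCtr. Vgll3, a cofactor of TEAD factors, rose with both, by 0.94 ± 0.15 (adjusted p = 0.00178) and 0.88 ± 0.16 (adjusted p = 0.00348). Tead1 stood at 174, 182 and 195 CPM in shCtr, 233, 269 and 216 in shOSGEP#1 and 482 and 343 in shOSGEP#2 (102 in replicate 2), the deep libraries of both above all of shCtr. Tead1, the DNA-binding partner of YAP, rose with shOSGEP#2, by 1.08 ± 0.19 (adjusted p = 0.00244), and so did the scaffold Wwc2, by 0.92 ± 0.18 (adjusted p = 0.00449). Wwc2 stood at 88.9, 96.1 and 93.8 CPM in shCtr, 146, 141 and 102 in shOSGEP#1 and 199 and 176 in shOSGEP#2 (765 in replicate 2). Frmd6 stood at 39.1, 45.6 and 55.4 CPM in shCtr, 76.1, 72.8 and 97.7 in shOSGEP#1 and 60.0 and 65.2 in shOSGEP#2 (0 in replicate 2), the deep libraries of both above all of shCtr. Frmd6, a FERM domain protein, rose with shOSGEP#1, by 0.80 ± 0.18 (adjusted p = 0.00888). Vgll3's shOSGEP#1 call was lost without any 1 of shCtr replicates 1 or 2 or shOSGEP#1 replicate 2 (adjusted p up to 0.0133), and that of Frmd6 without any 1 of shCtr replicates 1 or 2, shOSGEP#1 replicates 1, 2 or 3 or shOSGEP#2 replicates 1 or 3 (adjusted p up to 0.0476). Vgll3's shOSGEP#2 call was lost without any 1 of shCtr replicates 1 or 2 or shOSGEP#2 replicate 3 (adjusted p up to 0.0243), and that of Tead1 without any 1 of shCtr replicates 1 or 2 or shOSGEP#2 replicate 1 (adjusted p up to 0.0178). Wwc2's shOSGEP#2 call was lost without any 1 of shCtr replicates 1, 2 or 3 or shOSGEP#2 replicates 1 or 3 (adjusted p up to 0.0253).

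Of 19 tested TGF-beta ligands, receptors, SMADs and their regulators, 5 were called higher with shOSGEP#1 and 4 with shOSGEP#2. Itgav stood at 57.6, 65.0 and 74.6 CPM in shCtr, 105, 157 and 205 in shOSGEP#1 and 175 and 246 in shOSGEP#2 (192 in replicate 2), the deep libraries of both above all of shCtr. Itgav, a chain of the integrins that release TGF-beta from its latent form, rose with both, by 1.23 ± 0.23 (adjusted p = 0.00421) and 1.58 ± 0.25 (adjusted p = 0.00166). Ltbp3 stood at 61.2, 56.1 and 48.6 CPM in shCtr, 112.50, 165 and 168 in shOSGEP#1 and 48.3 and 63.7 in shOSGEP#2 (0 in replicate 2), with shOSGEP#1 above all of shCtr and deep shOSGEP#2 overlapping it. The latent TGF-beta binding proteins split, with Ltbp3 higher with shOSGEP#1, by 1.41 ± 0.19 (adjusted p = 0.000767), and Ltbp4 higher with shOSGEP#2, by 2.06 ± 0.30 (adjusted p = 0.000916). Ltbp4 stood at 10.5, 11.2 and 6.15 CPM in shCtr, 9.12, 11.011 and 6.48 in shOSGEP#1 and 36.9 and 46.0 in shOSGEP#2 (466 in replicate 2), with deep shOSGEP#2 above all of shCtr and shOSGEP#1 overlapping it. Among receptors, Tgfbr1 rose with shOSGEP#1, by 0.93 ± 0.19 (adjusted p = 0.00659), and Tgfbr2 with shOSGEP#2, by 1.19 ± 0.16 (adjusted p = 0.000592). Tgfbr1 stood at 22.2, 22.8 and 30.4 CPM in shCtr, 40.6, 57.7 and 46.4 in shOSGEP#1 and 50.4 and 45.3 in shOSGEP#2 (116 in replicate 2). Its value with shOSGEP#2, 0.84 ± 0.21 (adjusted p = 0.0172), was not called. Acvrl1, a receptor outside the naming rule, was called higher with shOSGEP#1, by 0.83 ± 0.19 (adjusted p = 0.009998), at the very edge of the threshold. Whether its calls depend on single libraries is not given here. Between the shRNAs it was called lower with shOSGEP#2, by -1.20 ± 0.22 (adjusted p = 0.00289). Tgfbr2 stood at 33.4, 38.2 and 38.6 CPM in shCtr, 48.7, 58.3 and 54.7 in shOSGEP#1 and 90.6 and 88.4 in shOSGEP#2 (192 in replicate 2), the deep libraries of both above all of shCtr. Of the ligands, Tgfb1 was low, at 0.397, 0.712 and 0.383 CPM in shCtr, 1.07, 0.637 and 1.01 in shOSGEP#1 and 0.314 and 0 in shOSGEP#2 (0 in replicate 2), and was not called. Tgfb3 stood at 13.3, 9.30 and 8.30 CPM in shCtr, 11.3, 18.0 and 10.9 in shOSGEP#1 and 66.9 and 28.4 in shOSGEP#2 (0 in replicate 2), with deep shOSGEP#2 above all of shCtr and shOSGEP#1 overlapping it. Tgfb3 rose with shOSGEP#2, by 2.13 ± 0.37 (adjusted p = 0.00247). Smad3 rose with shOSGEP#1, by 0.66 ± 0.14 (adjusted p = 0.00788), at 75.8, 83.6 and 81.2 CPM in shCtr, 136, 140 and 108 in shOSGEP#1 and 110 and 108 in shOSGEP#2 (118 in replicate 2). Smad2 was at 69.0, 68.8 and 61.2 CPM in shCtr, 80.4, 85.7 and 73.1 in shOSGEP#1 and 64.9 and 39.8 in shOSGEP#2 (40.4 in replicate 2), and Smad4 at 122, 118 and 93.7 CPM in shCtr, 121, 123 and 77.1 in shOSGEP#1 and 89.5 and 78.3 in shOSGEP#2 (61.5 in replicate 2). Neither was called. Itgav's shOSGEP#1 call was lost without any 1 of shCtr replicates 1, 2 or 3 or shOSGEP#1 replicates 2 or 3 (adjusted p up to 0.0253), and that of Tgfbr1 without any 1 of shCtr replicates 1 or 2 or shOSGEP#1 replicates 2 or 3 (adjusted p up to 0.0419). Smad3's shOSGEP#1 call was lost without any 1 of shCtr replicates 1, 2 or 3 or shOSGEP#1 replicates 1 or 2 (adjusted p up to 0.0404). Itgav's shOSGEP#2 call was lost without any 1 of shCtr replicate 1 or shOSGEP#2 replicate 3 (adjusted p up to 0.0162), and that of Tgfb3 without any 1 of shCtr replicates 2 or 3 or shOSGEP#2 replicate 1 (adjusted p up to 0.0206).

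**Figure D2:**
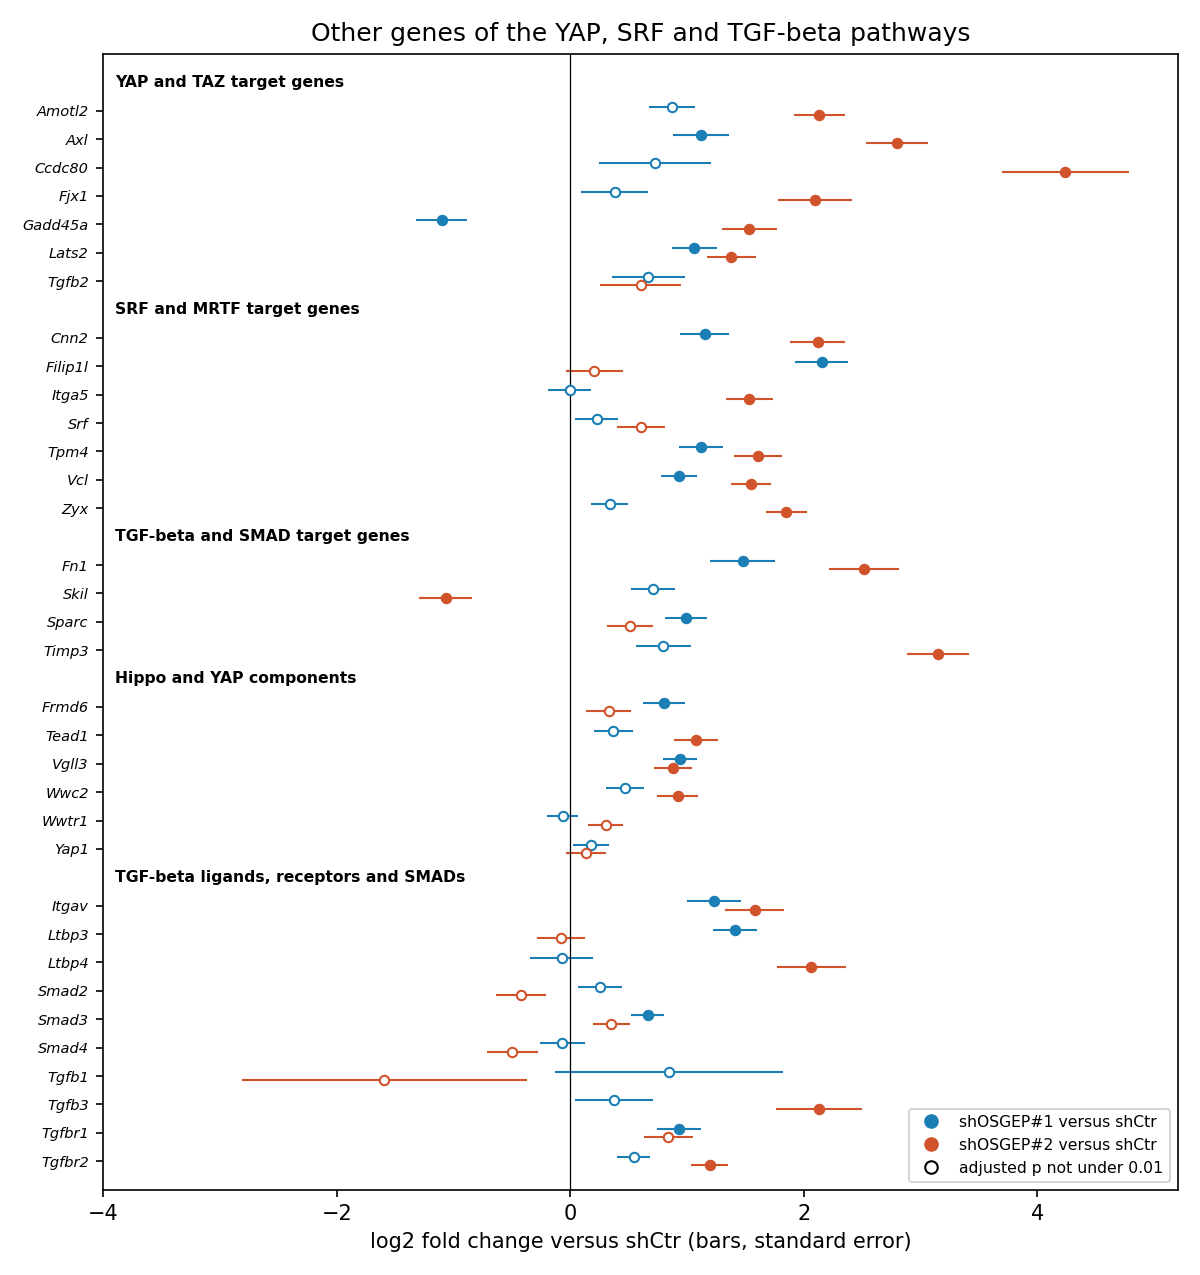
log2 fold change versus shCtr, with standard errors as bars, of the named genes of 5 lists with each shRNA (8 deep libraries). Filled points passed an adjusted p of 0.01 in edgeR and open points did not; the highest, Ccdc80, reached 4.24 ± 0.54 with shOSGEP#2.

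Between the shRNAs, 22 of the 118 genes were called higher and 7 lower with shOSGEP#2. The shares, 18.6% and 5.93%, compare with 6.23% and 4.56% of all genes. Without shOSGEP#1 replicate 2 or 3, or shOSGEP#2 replicate 1 or 3, 14 genes were called higher, and without shOSGEP#1 replicate 2, 4 were called lower. All calls, 1375 with the 8 libraries, became 821, 1119, 1504 and 743 in these fits. YAP and SRF targets made up 14 of those higher in the full set of 8 libraries, 7 and 7. Gadd45a differed by 2.63 ± 0.24 (adjusted p = 0.000118), and Filip1l was lower with shOSGEP#2, by -1.95 ± 0.26 (adjusted p = 0.000589). For Sparc, Frmd6, Tead1, Wwc2, Smad3, Tgfbr1 and Tgfbr2, each called with 1 shRNA and not with the other, the difference between the shRNAs did not pass the test in edgeR. DESeq2 on the same 8 libraries called the differences of Tead1 (adjusted p = 0.00165) and Tgfbr2 (adjusted p = 0.00141), as did edgeR scaled by library totals, and called none of the other 5. With all 9 libraries in the fit, edgeR called 0 genes in any of the 3 comparisons, a background of 0%, while 620, 1240 and 1325 had an unadjusted p under 0.05, where 617 of the 12337 tested would with no change. The first count, that of shOSGEP#1 versus shCtr, lies near this number. Its fit shares its spread with shOSGEP#2 replicate 2, a library in neither group, so nothing is read from it about that comparison. DESeq2 on the same 9 libraries called 122, 349 and 413. In edgeR each call given here was thus lost with shOSGEP#2 replicate 2 in the fit. For shOSGEP#1 versus shCtr that library is in neither group and entered through the shared spread and scaling. A fit of only these 2 groups, with no shOSGEP#2 library, called 24 list genes higher and 3 lower, and 1495 of 12274 genes in all. The common dispersion, the fit's overall spread between replicates, was 0.0692 with 8 libraries and 0.420 with 9, while all 59 called values of named genes kept their sign. With shOSGEP#1 they moved by at most 0.0123. With shOSGEP#2 15 of 22 were smaller with 9 libraries, and the largest move was that of Ltbp4, from 2.06 to 3.70.

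Because Acta2, Tagln and Myl9 are also genes of smooth muscle and of activated fibroblasts, markers of other cell types were read beside them. The markers too were chosen with earlier results of these data known. All 9 melanocyte and melanoma markers were tested and present in the 8 deep libraries, with Gpnmb or Tyrp1 the most abundant, and summed to 9152, 8369 and 11140.4 CPM in shCtr, 10823, 14091 and 12776 in shOSGEP#1, 3818 and 4735 in the deep shOSGEP#2 libraries and 2624 in shOSGEP#2 replicate 2. With shOSGEP#2, 7 of the 9 were called lower than shCtr, beside 3.89% of all genes, and with shOSGEP#1 Tyr was called lower, Gpnmb higher and the other 7 not. Tyr, tyrosinase, was at 153, 153 and 193 CPM in shCtr, 30.4, 26.1 and 27.3 in shOSGEP#1 and 5.93 and 19.8 in shOSGEP#2 (0 in replicate 2). Gpnmb, a melanosome glycoprotein, was at 2543, 2027 and 2229 CPM in shCtr, 4170.0, 5997 and 5546 in shOSGEP#1 and 1099.9 and 1236 in shOSGEP#2 (847 in replicate 2). The 2 genes thus moved apart with shOSGEP#1 and were both low with shOSGEP#2. Between the shRNAs 6 of the 9 were called lower with shOSGEP#2. These markers were low in the 2 libraries in which Myl9, Tagln, Acta2 and the YAP and SRF targets called with shOSGEP#2 were high, and their part in those levels was not tested.

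The 8 smooth muscle markers, led by Mylk in the deep libraries, summed to 249.6, 215 and 234 CPM in shCtr, 142, 136 and 115 in shOSGEP#1, 356 and 270.4 in the deep shOSGEP#2 libraries and 213 in shOSGEP#2 replicate 2. Of 7 tested, 1 was called higher than shCtr with shOSGEP#2 and 1 lower with shOSGEP#1, beside 5.66% and 4.67% of all genes. The 1 called higher was Lmod1, by 3.16 ± 0.36 (adjusted p = 0.000265). It was at 1.88, 2.16 and 3.42 CPM in shCtr, 2.72, 4.08 and 3.42 in shOSGEP#1 and 28.2 and 19.2 in deep shOSGEP#2. Between the shRNAs 3 were called higher with shOSGEP#2, Myh11 by 3.27 ± 0.61 (adjusted p = 0.00325), Lmod1 by 2.72 ± 0.36 (adjusted p = 0.000496) and Mylk by 1.45 ± 0.16 (adjusted p = 0.000247). That is 42.9% of those tested, beside 6.23% of all genes. These differences have the direction of that of Myl9 between the deep libraries of the 2 shRNAs. Against shCtr, Mylk was lower with shOSGEP#1, by a log2 fold change of -1.18 ± 0.15 (adjusted p = 0.000662), as was Myh11, by -1.43 ± 0.55 (adjusted p = 0.0864), not called, while Myl9 was higher there. In shOSGEP#2 replicate 2 Mylk and Lmod1 had no count, and Myl9 was at 93.1 CPM. The part of these genes in the difference of Myl9 was not tested. Of the defining markers, Myh11 was at 1.51, 0.984 and 1.41 CPM in shCtr, 0.521, 0.418 and 0.521 in shOSGEP#1, 3.61 and 6.44 in the deep shOSGEP#2 libraries and 130.1 in shOSGEP#2 replicate 2, and Cnn1 had no count in 8 of the 9 libraries. The 7 fibroblast markers summed to 1.34, 1.40 and 2.46 CPM in shCtr, 2.17, 1.99 and 4.27 in shOSGEP#1, 4.87 and 10.1 in the deep shOSGEP#2 libraries and 0 in shOSGEP#2 replicate 2, with Lum at 0 throughout. In shOSGEP#2 replicate 3 most of the sum was Col3a1, at 5.30 CPM, and Col6a3, at 3.89 CPM, with Pdgfra at 0.939 CPM. Endothelial markers summed to 0.298, 0.901 and 1.08 CPM in shCtr, 1.42, 0.199 and 2.18 in shOSGEP#1, 0.393 and 1.54 in the deep shOSGEP#2 libraries and 0 in shOSGEP#2 replicate 2. The highest of them was Kdr in shOSGEP#1 replicate 1, at 0.781 CPM, Tek in shOSGEP#2 replicate 1, at 0.275 CPM, and Pecam1 in the other deep libraries. Immune markers summed to 0.818, 1.38 and 1.34 CPM in shCtr, 3.42, 2.77 and 2.41 in shOSGEP#1, 0.825 and 1.68 in the deep shOSGEP#2 libraries and 0 in shOSGEP#2 replicate 2, with Itgam at 0. Lyz2 was the highest of them in the deep libraries other than shOSGEP#2 replicate 3, where it had no count and Cd3e was at 1.68 CPM. Of the keratinocyte markers Krt5 was at 0, and their sum was 0, 0 and 0 CPM in shCtr, 0.116, 0 and 0 in shOSGEP#1, 0.0786 and 0 in the deep shOSGEP#2 libraries and 0 in shOSGEP#2 replicate 2. Markers of these other types were at or near 0 in shCtr, apart from smooth muscle genes such as Mylk and Des, and the source of their counts was not tested.

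Promoter sequences, from 250 bases before to 50 after a gene's start in RefSeq on GRCm38.p6, were at hand for 6 of the 9 genes, namely Prss23, Myl9, Ccn1, Acta2, Ankrd1 and Tgfbi, and not for Thbs1, Ccn2 and Tagln. Both strands were searched, and the CArG box that SRF binds was taken strictly as CC, 6 of A or T, then GG. In this form it was in 1 of these 6 genes, Myl9, and in 1.81% of 27025 genes with such sequences. Near matches were not counted, so a gene without this pattern is not shown to lack a site for SRF. The TEAD motif CATTCC was in 3 of 6, Ccn1, Acta2 and Ankrd1, and in 16.6% of all. The short SMAD motif CAGAC was in 5 of 6 and in 53.2% of all. A gene can have more than 1 promoter entry, and per entry CAGAC was in 6 of 12 for the members and in 49.6% of all. The CArG box was in 1 of the 12 entries and CATTCC in 3, and in 1.63% and 14.7% of all entries. Of the listed SRF targets, 8 of 22 held a CArG box, and of the listed YAP targets, 5 of 13 held CATTCC. The Hippo and YAP components, listed apart from the targets, held it in 8 of 19 genes. CAGAC was in 9 of 13 listed TGF-beta targets. The stretch from -220 to -81 is shown for the 4 members with a CArG box or TEAD motif, with the CArG box of Myl9 and the TEAD motif of the others, or its reverse complement, in capitals, on GRCm38.p6, an earlier build than that of the counts. CAGAC, also in the Ankrd1 stretch, is not marked, and Prss23 and Tgfbi, with CAGAC alone, are not shown. A match is a description of these letters and not evidence of binding.
Myl9, chr2:156775244-156775383, plus strand: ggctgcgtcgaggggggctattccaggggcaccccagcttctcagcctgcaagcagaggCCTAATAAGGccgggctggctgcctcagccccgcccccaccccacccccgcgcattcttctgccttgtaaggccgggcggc
Ccn1, chr3:145650066-145650205, minus strand: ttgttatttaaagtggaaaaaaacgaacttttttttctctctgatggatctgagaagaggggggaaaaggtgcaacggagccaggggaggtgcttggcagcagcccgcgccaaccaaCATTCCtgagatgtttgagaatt
Acta2, chr19:34255454-34255593, minus strand: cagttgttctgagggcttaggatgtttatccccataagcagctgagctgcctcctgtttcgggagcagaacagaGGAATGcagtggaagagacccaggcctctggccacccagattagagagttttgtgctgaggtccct
Ankrd1, chr19:36119925-36120064, minus strand: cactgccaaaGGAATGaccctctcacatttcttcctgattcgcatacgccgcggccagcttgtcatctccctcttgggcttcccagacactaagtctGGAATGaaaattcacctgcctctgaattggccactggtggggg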

How the data were processed

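The authors depleted ribosomal RNA from the RIG-I-bound RNA, sequenced stranded paired-end libraries, trimmed reads with Trim Galore, aligned them with STAR to GRCm39 (Ensembl annotation), quantified them with Salmon, per the labels and methods, and deposited gene counts, whole numbers that were not normalized. How Salmon's estimates were rounded was not given. CPM were computed from these counts and library totals. Groups and replicate numbers came from the labels, and no 2 libraries of a group agreed within sampling noise.

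The tests used edgeR 4.0.16 under R 4.3.3 (TMM, filterByExpr, quasi-likelihood test, a coefficient per group, no covariate) over 12744 genes of the 8 deep libraries, with Benjamini-Hochberg adjustment over all of them and a threshold of 0.01. Standard errors are the absolute log2 fold change over the square root of F. Total counts ran from 568995 to 50224299, and intervals are 95% Clopper-Pearson. The alternatives were all 9 libraries, DESeq2 1.42.0, RLE, library totals, no filter, at least 10 counts in every library, a threshold of 0.05, only the 2 groups compared, a replicate block and leaving out each library. DESeq2 on all 9 libraries was added after the data were seen. The members, lists and markers were chosen with earlier results of these data known. Named were the members and Osgep, list genes called with both shRNAs, in each list the 3 up and 3 down with the largest change among those called with 1, fixed core factors whatever their result, and the 5 genes most like the members. Genes of 1 of the 6 lists are in the counts of named genes and are not all described.

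The scripts were tested on simulated data. Gene names came from a table that matched 22237 of 22396 identifiers, exon lengths and transcripts from GENCODE vM21 on GRCm38, matched by identifier, and promoters from RefSeq.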

Additional observations from a re-analysis of the deposited data

Results flagged for a closer look

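The effects of the 2 shRNAs differed in edgeR's test of shOSGEP#2 versus shOSGEP#1 for 17 named genes. In this contrast 6.23% of all genes tested were called higher and 4.56% lower. The naming took in list genes called with only 1 shRNA, which favours genes that differ between the shRNAs, so nothing is read from the count of 17. Among the 9 members the gene that differed was Myl9, with a log2 fold change of 2.27. Of the other genes, higher with shOSGEP#2 were Amotl2 (1.26), Axl (1.68), Ccdc80 (3.52), Fjx1 (1.71), Gadd45a (2.63), Itga5 (1.54), Zyx (1.51), Timp3 (2.35), Arhgef2 (1.91), Cfl1 (0.70), Ltbp4 (2.14) and Tgfb3 (1.76). Lower with shOSGEP#2 were Filip1l (-1.95), Skil (-1.78), Elk3 (-1.49) and Ltbp3 (-1.49). Gadd45a was called on opposite sides of shCtr. Amotl2's call was lost without shOSGEP#2 replicate 1 (adjusted p up to 0.0155), and that of Cfl1 without any 1 of shCtr replicates 1, 2 or 3, shOSGEP#1 replicates 1, 2 or 3 or shOSGEP#2 replicates 1 or 3 (adjusted p up to 0.0360). Elk3's call was lost without shOSGEP#2 replicate 3 (adjusted p up to 0.0104), and that of Fjx1 without any 1 of shOSGEP#1 replicates 1 or 3 or shOSGEP#2 replicate 3 (adjusted p up to 0.0287). Tgfb3's call was lost without any 1 of shCtr replicate 2, shOSGEP#1 replicates 1 or 3 or shOSGEP#2 replicate 1 (adjusted p up to 0.0650). With all 9 libraries in edgeR each of the 17 calls was lost.

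In shOSGEP#2 replicate 2, the shallow library that the tests leave out, 4 members had at least 3 counts. At this depth 3 counts make 5.27 CPM, which lies above every shCtr library for Myl9 and Acta2, so nothing is read from that order. Ccn1 was at 388 CPM and Prss23 at 125 CPM. Myl9 was at 93.1 CPM and Acta2 at 68.5 CPM, the latter against 2.08 and 0.536 CPM in the other libraries of the group.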

How the results depend on the processing

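The order of values here is other pathway genes called higher and lower with shOSGEP#1 (21 and 3), with shOSGEP#2 (30 and 1) and between the shRNAs (22 and 7), then members called between the shRNAs (1). With all 9 libraries edgeR called 0 in each, with 14, 1, 28, 0, 19, 10 and 3 at an unadjusted p under 0.05 (2.88 of list genes in 1 direction with no change), and DESeq2 on all 9, chosen after seeing the data, called 4, 0, 16, 0, 12, 1 and 2. The 3 and the 2 include Acta2, whose difference is no test. DESeq2 on 8 libraries called 34 higher and 6 lower with shOSGEP#1, 4 lower with shOSGEP#2 and 15 lower between the shRNAs, and a threshold of 0.05 gave 36, 7, 5 and 16 for these. Without a filter 5 and 2 were called lower with shOSGEP#1 and shOSGEP#2. With only the 2 groups compared 13 and 4 were called between the shRNAs, and 3 named calls were lost, Cfl1 (0.71) and Tgfb3 (1.77) between the shRNAs and Frmd6 with shOSGEP#1 (0.79). Leaving out 1 library gave 3 to 23, 0 to 3, 22 to 31, 0 to 3, 14 to 21, 4 to 8 and 1. RLE, library totals and at least 10 counts in every library kept all counts within 1.5 times. The replicate block gave 21, 4, 31, 1, 23, 8 and 1. It lost 1 call of a named gene, Cfl1 between the shRNAs (log2 fold change 0.65). Libraries of the same number deviated with a correlation of -0.00337 to 0.180 over 7 pairs (mean 0.0809, against -0.0398 for different numbers), and 6 of 8 libraries correlated best with one of their own number. As not every pair was over 0.1, the numbers were not taken as pairs. Of 59 called values of named genes, 59 were lost with all 9 libraries in edgeR and 38 in DESeq2, and between 8 and 24 without each library in turn. Of 65 values of named genes not called, 18 changed sign under some alternative, none of them called there, with these values under the alternatives, where a range is that of leaving out 1 library. In shOSGEP#2 versus shOSGEP#1 they were Lats2 (-0.060, -0.11), Tgfb2 (0.016, -0.15 to 0.11), Sparc (0.25, 0.28), Vgll3 (0.026, -0.12 to 0.037), Wwtr1 (-0.012), Yap1 (0.032, -0.17 to 0.042), Mrtfb (-0.24, -0.32, -0.13 to 0.64) and Tgfbr1 (0.17, 0.14, -0.20 to 0.061). In shOSGEP#1 versus shCtr they were Itga5 (0.0074, 0.0073, 0.0057, 0.0036, 0.014, -0.13 to 0.15), Wwtr1 (-0.15 to 0.0059), Ltbp4 (-0.29 to 0.11) and Smad4 (-0.18 to 0.12). In shOSGEP#2 versus shCtr they were Frmd6 (-0.22, -0.27), Wwtr1 (-0.048, -0.062), Yap1 (-0.43, -0.48), Mrtfa (0.013), Mrtfb (-0.61 to 0.16) and Ltbp3 (0.017, -0.26 to 0.075). Of the same 65, 12 were called at 0.01 under some alternative, 11 of them in DESeq2 on 8 libraries, 6 with no filter and 5 with library totals. They were Amotl2 (under 8 alternatives), Skil, Timp3 and Tgfbr2 with shOSGEP#1, Tgfbr1 and a gene of the list not described with shOSGEP#2, and Cnn2, Vcl, Fn1, Tead1, Tgfbr2 and Smad2 between the shRNAs. Limits remain. With shOSGEP#2 replicate 2 apart, its group has 2 libraries, and without 1 of these the lone library is taken to vary like the other groups. The members were chosen on their difference from shCtr, and both shRNAs are compared with the same 3 shCtr libraries. Counts under 20 in a group, as for Acta2 and Tgfbi in shCtr, set wide intervals. RNA bound by RIG-I and RNA in the cell cannot be told apart here, and protein, phosphorylation and the activity of YAP, SRF or SMAD factors were not analysed here.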
